A study of Mus musculus with 21 samples.

Results

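The nuclear genes of respiratory complex I were followed through oocytes and granulosa cells of young mice, aged mice and aged mice given human stem cells. They were picked by symbol, namely every gene named Nduf with a, b, c, s or v and a number, which took in the 8 assembly factors of the Ndufaf series. This gave 48 of the 55335 genes listed for all 21 libraries, 45 of them protein-coding and 3 processed pseudogenes, on 17 chromosomes. The rule used no measured value. Ndufa4l2 and Ndufb1-ps have like symbols but fall outside it, and a gene of the symbol Ndufb4b was not among the rows analysed here.

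The animals were ICR mice, an outbred stock. Young mice were 6 to 8 weeks old and Aged mice 18 months old. The other 3 groups were Aged mice injected beneath the ovarian capsule with human umbilical cord mesenchymal stem cells, either not sorted (Aged + Unsorted) or sorted by flow cytometry for a high or a low surface level of LRP1 (Aged + LRP1high and Aged + LRP1low), and 3 weeks passed before collection. Oocytes at metaphase II, freed of their zona, and granulosa cells, released from cumulus-oocyte complexes, were made into separate poly(A) RNA libraries. Young had 3 oocyte libraries and 1 granulosa library. Aged had 2 of each, Aged + Unsorted 2 and 1, Aged + LRP1high 3 of each, and Aged + LRP1low 2 of each. The labels call the libraries of a group biological replicates without tying them to animals or giving the number of cells, so the p-values measure the spread between these libraries alone. In such bulk libraries fewer cells of a type and less RNA per cell cannot be told apart.

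Complex I takes electrons from NADH, passes them along iron-sulfur clusters to ubiquinone and pumps protons out of the mitochondrial matrix. Its core is built from nuclear subunits, which form the catalytic part of the peripheral arm, and from mitochondrially encoded ND subunits in the membrane arm, with many nuclear accessory subunits around both. Assembly factors join the modules and leave before the enzyme is finished. Oocytes hold many mitochondria, and a growing oocyte takes up pyruvate that its granulosa cells make, so its ATP comes largely from oxidative phosphorylation.

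By role, 7 of the genes encode core subunits, 9 other subunits of the peripheral arm, 9 subunits of the proximal and 11 of the distal membrane arm, and 8 assembly factors. The list of distal subunits includes Ndufab1, the mitochondrial acyl carrier protein, which is also needed for mitochondrial fatty acid synthesis. Ndufa4 keeps its old name but is now known as a subunit of cytochrome c oxidase, complex IV. Ndufa11b, Ndufb4c and Ndufs6b are annotated as processed pseudogenes and were treated as copies of Ndufa11, Ndufb4 and Ndufs6.

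Levels are given as FPKM, a measure scaled to transcript length and to the mapped fragments of the library, so they can be compared between genes of different length within a library. The deposited coverage corresponded to 0.278 to 3.40 aligned gigabases in the oocyte libraries and 0.335 to 1.49 in the granulosa libraries. At these depths 1 read of 150 bases on a transcript of 1 kilobase is worth an FPKM between 0.0441 and 0.540. Coverage, FPKM and TPM are not counts, so no counting interval is given for single libraries.

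Several libraries went against their labels. The median of 10 oocyte marker genes (the zona proteins, Gdf9, Bmp15 and others) lay between 84.9 and 1001 FPKM in 8 of the 12 oocyte libraries. It was 0.892 in Young 1, 11.6 in Aged 1, 5.02 in Aged + LRP1low 1 and 7.77 in Aged + LRP1low 2, and these 4 are called the libraries poor in oocyte markers. Both Aged + LRP1low libraries are therefore of this kind. In 3 of the 4, vomeronasal receptor genes, which ovary is not known to use, also had a raised median over 329 genes, at 2.13 to 2.72 FPKM. The granulosa library of Aged + Unsorted had an oocyte marker median of 799.7 FPKM and, over 5069 genes at 10 FPKM or more in both, a Pearson correlation of 0.964 with the oocyte library Aged + Unsorted 2. For the 10 granulosa markers, among them Fshr, Amh and Foxl2, the median was 74.9 FPKM in granulosa Young, 21.4 in granulosa Aged + LRP1high 3 and no more than 1.93 in the other granulosa libraries. In the granulosa libraries 4 genes of a repeat-like kind (Gm10800 and its relatives) took 7.66% to 95.7% of all FPKM. In the oocyte libraries poor in oocyte markers they took 86.8% (Young 1), 47.6% (Aged 1), 41.4% and 62.2% (Aged + LRP1low 1 and 2). Their share was 19.2% in oocyte Aged 2 and at most 3.08% in the other oocyte libraries. What part any of this had in the results was not tested, and results are given with and without the libraries concerned.

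Summed over the 48 genes, complex I RNA ranged from 99.0 to 4778 FPKM in oocyte libraries and from 6.72 to 5629 in granulosa libraries. The 3 Young oocyte libraries held 99.0, 869 and 2723 FPKM, and the 2 Aged ones 292 and 3695. The sums were 3479 and 4778 in Aged + Unsorted oocytes. They were 2312, 3371 and 1252 in Aged + LRP1high oocytes, and 320 and 219 in Aged + LRP1low oocytes. All 4 libraries poor in oocyte markers had sums at or under 320, and the 8 others were at 869 or more. Within the groups they differed widely too, with 1230 ± 1349 (SD, n = 3) for Young and 1993 ± 2407 (SD, n = 2) for Aged.

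In granulosa cells the sum was 5629 FPKM in the Young library and 4134 in that of Aged + Unsorted, the library that resembled an oocyte one. Both Aged granulosa libraries were low in these transcripts, at 6.72 and 9.68 FPKM, and in most protein-coding ones. In each, 0.140% of protein-coding genes reached 10 FPKM, and the repeat-like genes took 91.6% and 93.0% of FPKM. Rescaled to TPM over protein-coding genes, the sums were 1431 and 1993 in Aged, 17780 in Young and 12940 in Aged + Unsorted. They were 6473, 2356 and 4239 in Aged + LRP1high, and 19000 and 3501 in Aged + LRP1low. The Aged + LRP1high libraries held 421, 25.7 and 667 FPKM and the Aged + LRP1low libraries 3226 and 50.4. Every treated granulosa library thus lay above both Aged libraries.

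**Figure D1:**
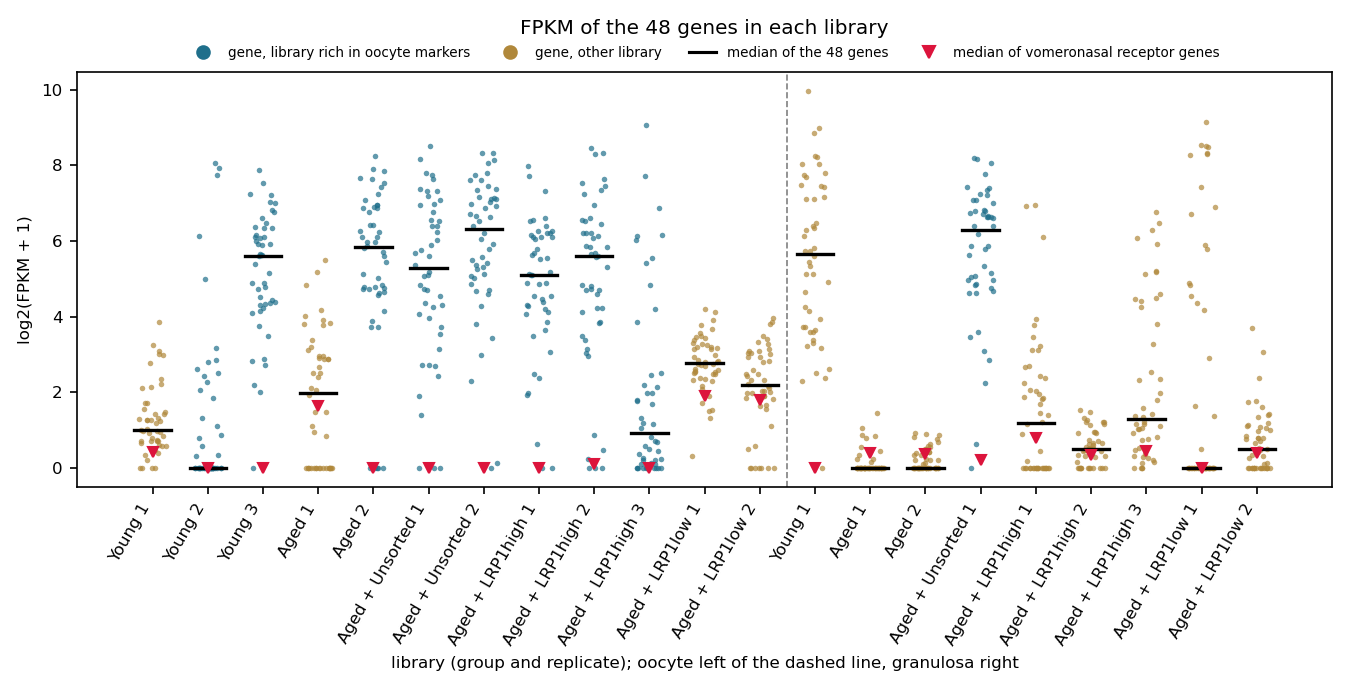
Level of each of the 48 genes (points, log2(FPKM + 1)) in the 12 oocyte libraries (left of the dashed line) and 9 granulosa libraries, with the median as a black bar. Blue points are in libraries rich in oocyte markers and tan points in the others. Red triangles give the median of the 329 vomeronasal receptor genes, and the black bars sit highest in oocyte Aged + Unsorted 2 and granulosa Aged + Unsorted 1.

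In libraries rich in oocyte RNA complex I genes stood well above the run of genes. At 10 FPKM or more were 87.5% of the 48 genes in Young 3, against 18.5% of all protein-coding genes there. The same shares were 89.6% and 19.5% in Aged 2, and 89.6% and 22.7% in Aged + Unsorted 2. Young 2 and Aged + LRP1high 3 were unlike these. Only 10.4% of the 48 reached 10 FPKM in Young 2, where 5.29% of protein-coding genes did, and 22.9% in Aged + LRP1high 3, where 9.59% did. In both, a few genes carried nearly all of the sum, with 94.4% and 80.1% of it in the 5 highest genes.

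**Figure D2:**
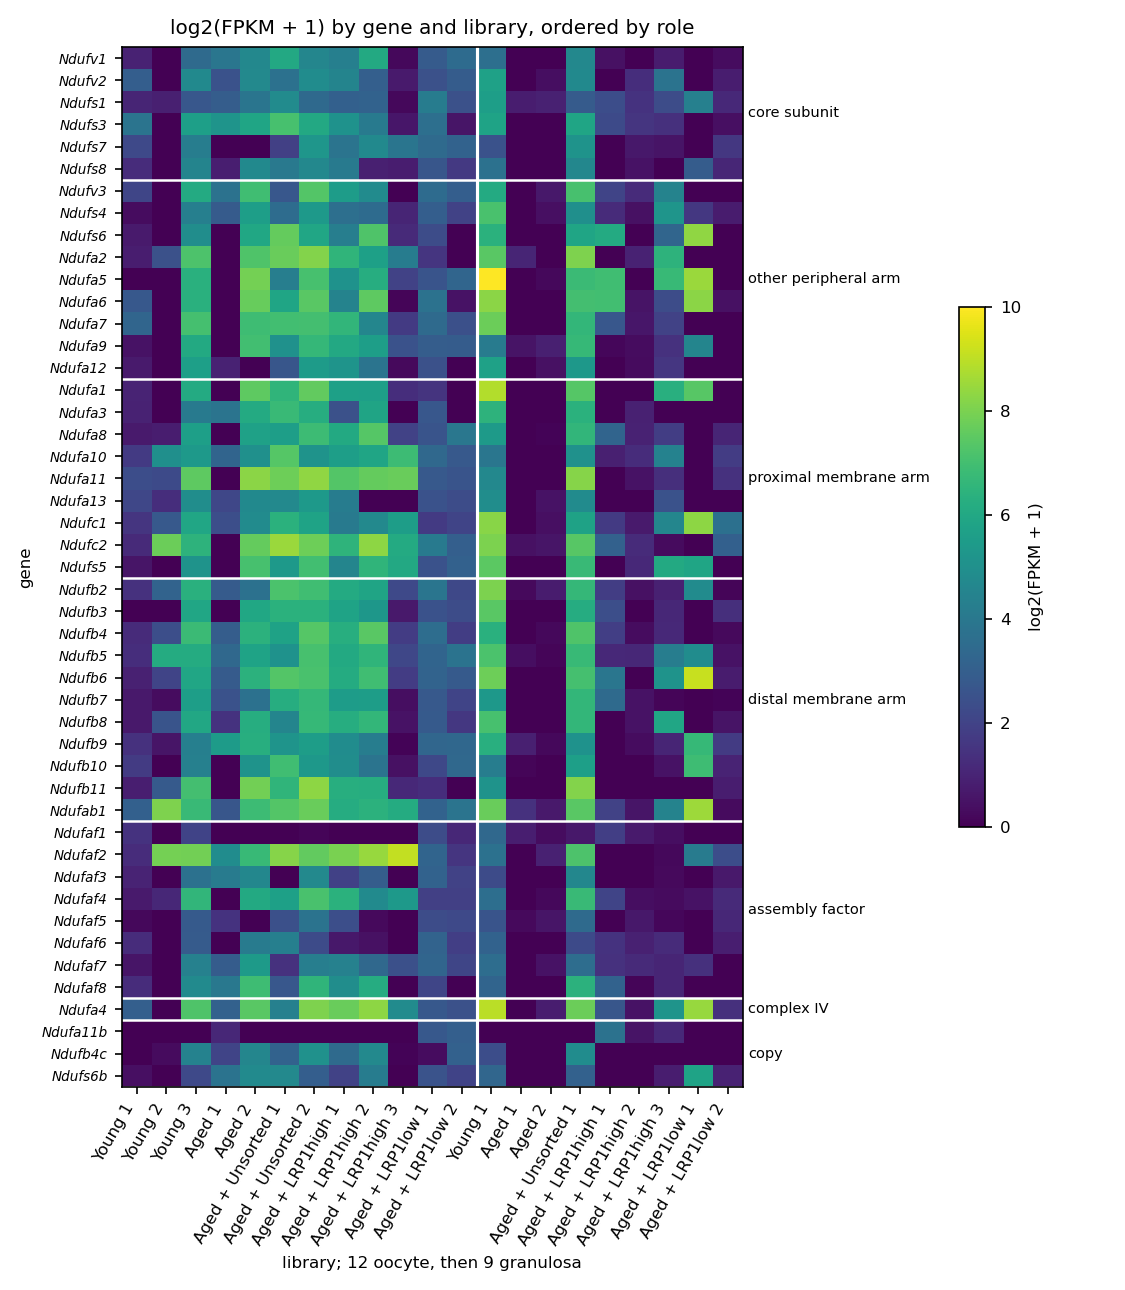
Heat map of log2(FPKM + 1) by gene (rows, grouped by role) in the 21 libraries (columns, by cell type and group). Bright cells, the high levels, gather in most libraries rich in oocyte markers and in granulosa Young, where 39 genes reached 10 FPKM. In oocyte Young 2 and Aged + LRP1high 3, also rich in markers, only 5 and 11 genes did. The Aged granulosa columns are dark, with sums of 6.72 and 9.68 FPKM.

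The order of the genes was led in oocytes by an assembly factor. Mean FPKM over the 12 oocyte libraries was highest for Ndufaf2 at 187.1, followed by Ndufa11 at 134.4, Ndufc2 at 132.2, Ndufa4 at 98.9 and Ndufab1 at 93.6. The lowest were Ndufaf3 at 8.30, Ndufaf6 at 4.89, Ndufaf5 at 3.12, the copy Ndufa11b at 1.17 and Ndufaf1 at 0.838. The assembly factors therefore stood at both ends. Ndufaf3 works with Ndufaf4 on the module that binds ubiquinone, Ndufaf5 hydroxylates an arginine of Ndufs7, and Ndufaf1 helps to build the membrane arm. These means rest on libraries that differ many-fold, and neighbours in the order do not differ beyond that spread.

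Granulosa levels were ordered over libraries whose sums ran from 6.72 to 5629 FPKM, the one that resembled an oocyte library among them, and the order was not tested against that of oocytes. The highest means over 9 libraries were those of Ndufa5 at 188.6, Ndufa4 at 124.2, Ndufb6 at 107.7, Ndufa1 at 97.2 and Ndufa6 at 96.4. The lowest were Ndufaf7 at 3.12, Ndufaf5 at 1.95, Ndufaf6 at 1.82, Ndufaf1 at 1.62 and Ndufa11b at 1.59 FPKM. Most of a mean came from few libraries. Ndufa5, a peripheral arm subunit, was at 998.8 FPKM in granulosa Young, 119.7 and 106.8 in Aged + LRP1high 1 and 3 and 360.6 in Aged + LRP1low 1, and at 0 in Aged 1, Aged + LRP1high 2 and Aged + LRP1low 2.

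Ndufaf2, a paralogue of Ndufa12 that holds its place until late in assembly, was among the 5 highest of these genes in 6 of the 8 oocyte libraries rich in markers. Its FPKM was 1.39, 241 and 233 in Young oocytes, 27.8 and 107 in Aged, 286 and 195 in Aged + Unsorted, 253, 352 and 538 in Aged + LRP1high, and 8.45 and 1.93 in Aged + LRP1low. It was at 106.9 FPKM or more in the 8 libraries rich in oocyte markers and at no more than 27.8 in the 4 poor ones. Ndufa12 in the same 8 libraries had a median of 9.35 FPKM against 246.8 for Ndufaf2, and was listed at 0 in Young 2 and Aged 2. In granulosa libraries Ndufaf2 was at 12.2 FPKM in Young, 147 in Aged + Unsorted, 16.9 and 4.17 in Aged + LRP1low, and under 1 in all 5 Aged and Aged + LRP1high libraries.

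Ndufc2 and Ndufa11, both of the proximal membrane arm, followed the same libraries. Ndufc2 was at 1.29, 213 and 88.1 FPKM in Young oocytes, 0 and 199 in Aged, 363 and 220 in Aged + Unsorted, 90.9, 318 and 69.1 in Aged + LRP1high, and 16.3 and 7.25 in Aged + LRP1low. Ndufa11 was at 4.13, 3.78 and 182, then 0 and 304, then 223 and 320, then 158, 197 and 210, and at 5.93 and 5.05, in the same order of groups. The low Ndufa11 value of Young 2 stood beside its high Ndufc2 value, so the 2 genes did not move as a unit there. Ndufab1 was at 7.47, 265 and 108 FPKM in Young oocytes, 5.41 and 115 in Aged, 159 and 212 in Aged + Unsorted, 72.7, 85.8 and 70.7 in Aged + LRP1high, and 7.87 and 13.4 in Aged + LRP1low. Ndufa10, Ndufab1, Ndufaf2 and Ndufc2 were the 4 genes at 10 FPKM or more in all 8 libraries rich in oocyte markers, or 8.33% of the 48, against 571 of 21398 protein-coding genes, or 2.67%.

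**Figure D3:**
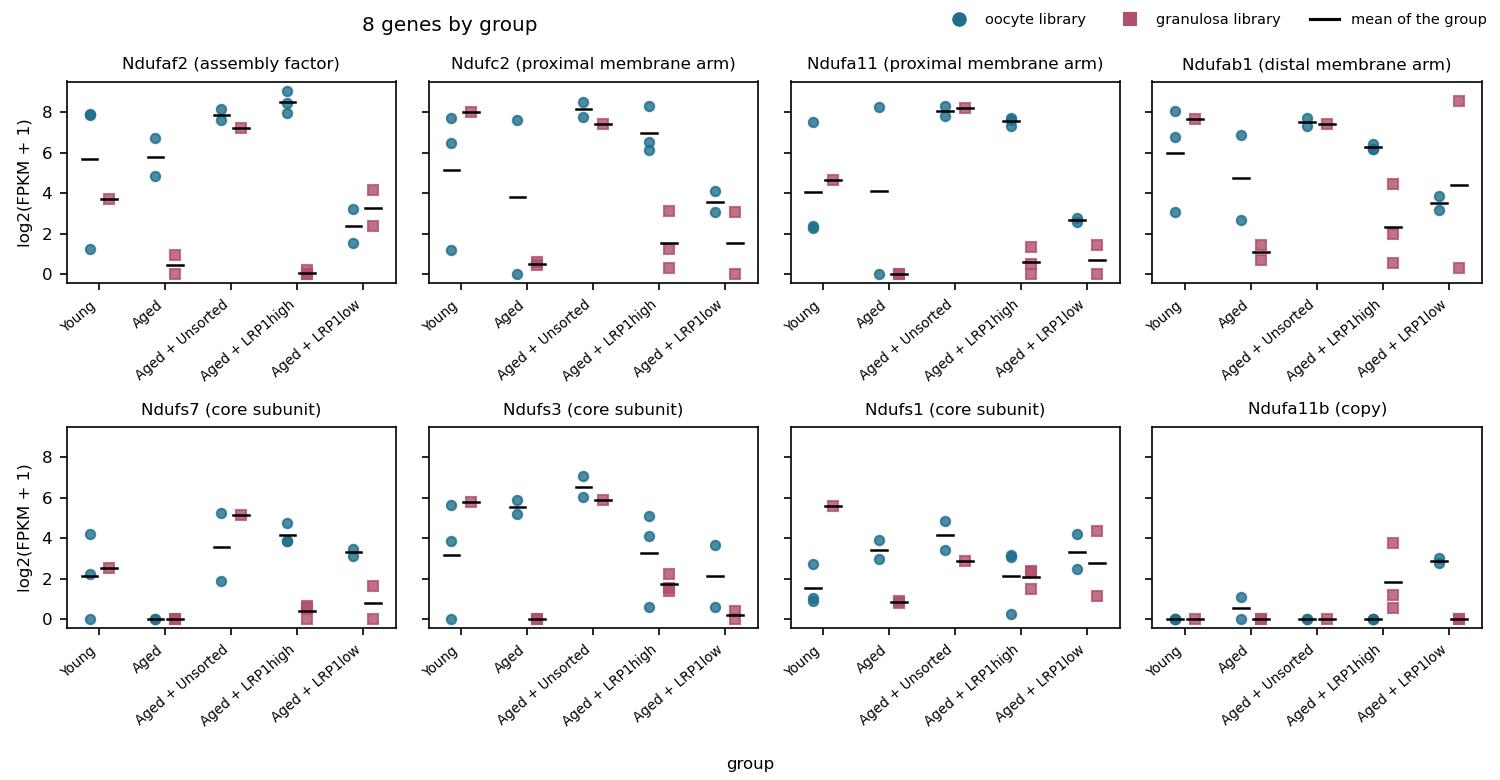
Level of 8 of the genes (log2(FPKM + 1)) by group, 1 panel per gene, with circles for oocyte and squares for granulosa libraries and black bars for the group means of the log2 values. Ndufaf2 is high in the 3 Aged + LRP1high oocyte libraries (253 to 538 FPKM) and low in the 2 Aged + LRP1low ones (8.45 and 1.93).

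Core subunits had lower medians than the other subunits. In the 8 oocyte libraries rich in markers the median over the core subunits reached at most 28.3 FPKM, in Aged + Unsorted 2, where the median of the distal membrane arm was 119.7 and of the other peripheral subunits 129.7. In Young 3 the 3 medians were 17.7, 62.3 and 67.9 FPKM, while in Young 2 the core and the other peripheral median were both 0. Ndufs1, the large subunit of the electron-carrying module, was lowest among the core subunits, with a median of 7.62 FPKM over these 8 libraries, and Ndufs3 highest at 41.1. Granulosa Young kept the same order, with 33.7 for the core subunits, 136.2 for the distal membrane arm and 138.1 for the other peripheral subunits.

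Promoter sequences show what the genes share that the choice by symbol did not use. RefSeq promoters on GRCm38.p6, from 250 bases before the start to 50 after it, were matched for 40 of the 48 genes, with 42 promoters in all, and among those with no entry were Ndufb4c, Ndufaf6, Ndufb9, Ndufa11b, Ndufs1, Ndufs6b and Ndufa2. Both strands were searched for GCGCATG (part of the site of NRF1, a factor known for its role at genes of oxidative phosphorylation), CCGGAAG (ETS factors, among them GABP) and AGATGGC (YY1), where GCGCATG can overlap its own reverse complement, and for CCAAT (NF-Y) and TATAAA (the TATA box). GCGCATG was in 16.7% of the 42 promoters and in 3.91% of all 32841 promoters of the same length, AGATGGC in 21.4% and 6.40%, and CCGGAAG in 14.3% and 8.86%. CCAAT was in 33.3% and 37.4%, and TATAAA in 11.9% and 13.6%. In 23 of the 42 promoters none of the first 3 motifs was found, and median GC content was 59.3% against 52.7% for all promoters. Among the promoters of protein-coding genes the shares were 4.94% for GCGCATG, 6.05% for AGATGGC and 11.9% for CCGGAAG, and the median GC content was 57.0%.

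AGATGGC stood mostly just after the start. It was read on the gene's strand within the first 50 bases in 8 of the 42 promoters, or 19.1%, against 375 of 32841, or 1.14%. In the 250 bases before the start it was in 2.38% and 2.2%. The 8 genes were Ndufa3, Ndufa9, Ndufaf8, Ndufb8, Ndufc1, Ndufs4, Ndufs6 and Ndufs7, from all parts of the enzyme and its assembly. A match is a description of letters in this window only.

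The promoters of 6 genes are shown because these genes carry the oocyte values and the differences between cell types below, and because they hold the contrast in motifs. Capitals mark GCGCATG or AGATGGC on either strand. Position 0 is the RefSeq start. Ndufaf2 (chr13:108158576-108158875, minus strand) and Ndufc2 (chr7:97399753-97400052, plus strand) hold none of the first 3 motifs. Ndufa11 (chr17:56717512-56717811, plus strand) and Ndufaf4 (chr4:24897833-24898132, plus strand) each hold GCGCATG on both strands 3 bases apart, first bases at -60 and -57 in Ndufa11 and at -113 and -110 in Ndufaf4, which has a further match at 1. Ndufab1 (chr7:122101799-122102098, minus strand) holds AGATGGC at -170, and Ndufs7 (chr10:80249199-80249498, plus strand) at 25.
Ndufaf2: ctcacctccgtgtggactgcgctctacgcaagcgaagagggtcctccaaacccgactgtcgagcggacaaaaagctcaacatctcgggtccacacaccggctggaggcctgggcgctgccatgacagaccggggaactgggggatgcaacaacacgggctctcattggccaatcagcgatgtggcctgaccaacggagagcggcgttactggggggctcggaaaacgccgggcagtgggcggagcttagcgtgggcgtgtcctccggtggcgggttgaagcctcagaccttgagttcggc
Ndufc2: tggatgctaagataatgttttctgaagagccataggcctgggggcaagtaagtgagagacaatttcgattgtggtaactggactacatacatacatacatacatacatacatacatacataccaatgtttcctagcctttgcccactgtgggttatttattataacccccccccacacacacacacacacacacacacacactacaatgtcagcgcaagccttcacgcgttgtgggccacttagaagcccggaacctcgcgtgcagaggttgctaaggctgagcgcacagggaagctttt
Ndufa11: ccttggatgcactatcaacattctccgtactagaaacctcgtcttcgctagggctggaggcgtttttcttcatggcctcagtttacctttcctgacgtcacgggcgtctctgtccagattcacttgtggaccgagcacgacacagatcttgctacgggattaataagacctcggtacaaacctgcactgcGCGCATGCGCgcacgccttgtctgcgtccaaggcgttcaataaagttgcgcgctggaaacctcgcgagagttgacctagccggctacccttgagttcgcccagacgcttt
Ndufaf4: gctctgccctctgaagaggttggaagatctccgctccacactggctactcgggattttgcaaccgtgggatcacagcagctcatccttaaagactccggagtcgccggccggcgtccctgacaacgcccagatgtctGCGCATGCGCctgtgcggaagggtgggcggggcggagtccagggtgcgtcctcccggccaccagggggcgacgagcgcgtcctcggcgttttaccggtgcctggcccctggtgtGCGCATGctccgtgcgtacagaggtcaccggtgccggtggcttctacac
Ndufab1: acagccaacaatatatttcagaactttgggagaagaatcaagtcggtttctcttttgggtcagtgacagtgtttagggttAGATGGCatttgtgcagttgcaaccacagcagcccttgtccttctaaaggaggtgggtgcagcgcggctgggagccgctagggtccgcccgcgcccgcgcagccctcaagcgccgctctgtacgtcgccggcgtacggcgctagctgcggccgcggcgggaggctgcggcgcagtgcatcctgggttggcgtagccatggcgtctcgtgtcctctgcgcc
Ndufs7: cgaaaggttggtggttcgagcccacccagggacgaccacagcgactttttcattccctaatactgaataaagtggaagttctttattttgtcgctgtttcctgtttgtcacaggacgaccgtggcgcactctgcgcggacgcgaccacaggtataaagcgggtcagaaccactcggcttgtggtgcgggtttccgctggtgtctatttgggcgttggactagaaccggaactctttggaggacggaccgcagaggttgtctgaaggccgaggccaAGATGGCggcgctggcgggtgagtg

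A minority of the genes had a close neighbour read the other way. In the GENCODE annotation of GRCm38 a protein-coding gene began within 1000 bases in the opposite direction at 13 of the 45 protein-coding members, or 28.9%, against 1491 of 21951 protein-coding genes, or 6.79%. The starts of Ndufaf2 and Ercc8, a DNA repair gene, were 108 bases apart, those of Ndufa7 and Rps28, a ribosomal protein gene, 10 bases, and those of Ndufa8 and Morn5 52 bases. The longest of the 13 distances was that of Ndufa4 and Phf14, at 312 bases.

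The 3 copies were low where their parents were high. Where the parent reached 10 FPKM, Ndufb4c was at 0.0236 to 0.271 times Ndufb4 (median 0.148, 9 libraries) and Ndufs6b at 0 to 0.436 times Ndufs6 (median 0.127, 10 libraries). Ndufa11b was listed at 0 in all 9 libraries where Ndufa11 reached 10 FPKM. Of the 31-base words in the copy, 100% for Ndufb4c, 45.3% for Ndufs6b and 26.7% for Ndufa11b were also in transcripts of the parent, so reads can be shared between them and the values of copies and parents are uncertain to that extent.

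Changes are given as differences of log2(FPKM + 1) with their standard error (SE), and a gene was called when limma gave a fold over 1.5 and a Benjamini-Hochberg adjusted p under 0.05 over all genes tested. The fold is on that scale and understates the change of low genes. All oocyte comparisons with Aged share its 2 libraries, 1 of which was poor in oocyte markers.

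The question of age was put by Aged against Young oocytes, where none of the 47 complex I genes tested was called by limma. Called higher were 0.0964% of all 28004 genes tested and called lower 0%, and at an unadjusted p under 0.05 were 2 of the 47, both higher (8.43% of all genes). Positive changes numbered 41, where 78.4% of all genes had one, with a median of 0.92 beside 0.94 over all genes. Core subunits gave 2.81 for Ndufv1, which binds NADH and flavin, 1.04 for Ndufv2, 1.88 for Ndufs1, 2.36 for Ndufs3, -2.15 for Ndufs7 and 0.87 for Ndufs8, with SE between 1.04 and 1.68. Ndufs7, which carries the last iron-sulfur cluster before ubiquinone, was the lowest of all, at 3.65, 0 and 17.7 FPKM in Young and 0 in both Aged libraries.

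The other ends of the list were Ndufa12 at -1.63 (SE 1.80), Ndufs6b at 3.43 (SE 1.16) and Ndufb9, a distal subunit of the LYR family, at 3.76 (SE 1.38). Ndufab1 was at -1.2, Ndufa4 at 1.85, Ndufb4 at 1.19 and Ndufb4c at 1.73, and the smallest adjusted p among the 47 was 0.295. Ndufaf3, Ndufb9, Ndufs1, Ndufs6b and Ndufv1, 5 genes in all, were higher in both Aged than in all Young libraries, a state met by 11% of all genes. Without the libraries poor in oocyte markers the median became 2.60 with 1 Aged library left, without Aged 2 it turned to -0.84, without Aged 1 it was 3.13, and after quantile normalization it became -0.06.

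Against Aged, oocytes of Aged + Unsorted mice had higher complex I values without a call. None of the 47 genes was called by limma, where 0% of all genes were called in either direction, and 2 had an unadjusted p under 0.05, both higher (1.7% of all genes). The median change was 2.09, beside -0.86 over all genes, and 40 of the 47 changes were positive, where 29.6% of all changes were. Among genes with a mean of at least 10 FPKM the median was 2.43, beside 1.47 over all such genes. In 17 genes both Aged + Unsorted libraries exceeded both Aged ones, where 10.3% of all genes did so, and in 0 they were below, where 11.3% of all genes were. Core subunits gave 1.04 for Ndufv1, 0.69 for Ndufv2, 0.71 for Ndufs1, 1.03 for Ndufs3, 3.59 for Ndufs7 and 1.57 for Ndufs8, with SE between 1.14 and 1.84.

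The extremes were Ndufaf3 at -2.05 (SE 1.59) and Ndufaf7, a methyltransferase, at -1.33 (SE 1.51), and at the other end Ndufa2 at 4.31 (SE 2.26) and Ndufc2 at 4.33 (SE 2.35). Ndufab1 was at 2.76, Ndufa4 at 0.94, Ndufb4 at 1.87 and Ndufb4c at 0.79. The smallest adjusted p was 0.339. Without Aged 1, the library poor in oocyte markers, the median was 0.15, beside 0.00 over all genes, and without Aged 2 it was 3.52. Without all libraries poor in oocyte markers it was 0.20, beside 0.23 over all genes.

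The comparison of Aged + LRP1high with Aged oocytes asks what the LRP1high cells did in an aged ovary. Limma called none of the 47 complex I genes, where it called 0.0179% of all genes higher and 0.753% lower, and 1 of the 47 had an unadjusted p under 0.05, being higher (0.925% of all genes). The median was 0.47 beside -1.05 over all genes, with 30 positive changes and 17 negative, where 24.1% and 71% of all genes had one. Among genes with a mean of at least 10 FPKM the median was 0.61, beside 0.68 over all such genes. Ndufs7 had the highest change, 4.15 (SE 1.2, adjusted p = 0.131), from 0 in both Aged libraries to 13.4, 25.6 and 13.6 FPKM. Because Aged is listed at 0 this value depends on the pseudocount.

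Other core subunits had -0.75 for Ndufv1, -0.85 for Ndufv2, -1.27 for Ndufs1, -2.25 for Ndufs3 and -0.88 for Ndufs8, with SE between 1.04 and 1.68. Ndufs7 thus stood apart from the subunits it works with. The other ends of the list were Ndufb9 at -2.81 (SE 1.38), Ndufaf3 at -2.77 (SE 1.45) and Ndufa11 at 3.43 (SE 2.06). Ndufab1 was at 1.5, Ndufa4 at 1.67, Ndufb4 at 0.46 and Ndufb4c at -0.55. Ndufa10, Ndufaf2 and Ndufs7, 3 genes, lay above both Aged libraries in all Aged + LRP1high ones (3.85% of all genes), and Ndufaf3, Ndufb9 and Ndufs3, again 3, lay below (12.4% of all genes). Without the libraries poor in oocyte markers the median turned to -1.77, beside -0.50 over all genes, and the change of Ndufa11 to -0.70. Without Aged 1 alone the median was -1.75 and without Aged 2 alone 2.13.

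In Aged + LRP1low against Aged oocytes 40 of the 47 changes were negative, where 31.6% of all changes were, and the median was -1.21 beside 0.68 over all genes. Among genes with a mean of at least 10 FPKM the median was -1.35, beside -1.02 over all such genes. Without Aged 2 the median turned to 0.30, and without Aged 1 it was -3.13. Limma called none of the 47, where 3.09% of all genes were called higher and 0.075% lower, and 2 had an unadjusted p under 0.05, both higher (13.2% of all genes). Those nearest to a call were Ndufa11b at 2.34 (SE 0.64, adjusted p = 0.0754) and Ndufs7 at 3.30 (SE 1.31, adjusted p = 0.259). Ndufa11b passed the filter only through the Aged + LRP1low libraries, at 5.71 and 7.21 FPKM, so its value is given as a description. The lowest were Ndufaf8, a partner of Ndufaf5, at -4.40 (SE 2.15) and Ndufa3 at -3.61 (SE 1.83). Groups did not overlap for 3 genes that were higher and 11 that were lower in Aged + LRP1low, where 27.1% and 9.55% of all genes did so.

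Core subunits gave -1.12 for Ndufv1, -0.91 for Ndufv2, -0.08 for Ndufs1, -3.41 for Ndufs3, 3.30 for Ndufs7 and -0.63 for Ndufs8, with SE between 1.14 and 1.84. Ndufab1 was at -1.27, Ndufa4 at -2.67, Ndufb4 at -2.00 and Ndufb4c at -1.60. Both Aged + LRP1low libraries were poor in oocyte markers and high in vomeronasal receptor RNA (2.72 and 2.48 FPKM), so group and library kind cannot be told apart, and this comparison has no value without them.

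The direct contrast of the sorted cells was the only oocyte comparison with calls among these genes. Ndufaf2 rose in Aged + LRP1high against Aged + LRP1low oocytes by 6.11 on the log2 scale (SE 1.68, adjusted p = 0.0329), from 8.45 and 1.93 FPKM to 253, 352 and 538. Ndufa11b, the pseudogene copy, was called lower with a change of -2.89 (SE 0.58, adjusted p = 0.0193), from 5.71 and 7.21 FPKM to a listed 0 in all 3 Aged + LRP1high libraries. Its mean of 1.17 FPKM over the oocyte libraries passed the filter only through the Aged + LRP1low libraries, since it was at 1.16 in Aged 1 and 0 in the other 9, so this call is given as a description. These were 1 of 47 genes in each direction, where 1.21% of all genes were called higher and 24.8% lower. Both Aged + LRP1low libraries were again those poor in oocyte markers, with marker medians of 5.02 and 7.77 FPKM against 161.3 to 799.1 in Aged + LRP1high, and what part this had in the calls was not tested. Neither Ndufaf2 nor Ndufa11b was called when any single library of either group was left out. Over 20 other settings the adjusted p of Ndufaf2 ran from 0.00478 to 0.212 and the call held in 12 of them, and Ndufa11b held in 10 of 16, with an adjusted p from 0.000258 to 0.205.

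Across the 47 genes 38 changes were positive, where 16.8% of all changes were, and the median was 1.51 beside -1.89 over all genes. Over the 40 of them with a mean of at least 10 FPKM the median was 1.83, beside 1.57 over all 4066 such genes. The median was 0.24 with TPM over protein-coding genes (-4.18 over all genes), 0.73 and 1.00 without Aged + LRP1high 2 and 1, and 2.79 without Aged + LRP1high 3. In 11 genes all Aged + LRP1high libraries were above both Aged + LRP1low ones, where 6.82% of all genes were, and in 2 they were below, where 62.6% were. Next to Ndufaf2 by size of change came Ndufa11 at 4.86 (SE 2.06, adjusted p = 0.0857) and, at the low end, Ndufaf6 at -2.15 (SE 1.22). Core subunits gave 0.36 for Ndufv1, 0.05 for Ndufv2, -1.19 for Ndufs1, 1.15 for Ndufs3, 0.85 for Ndufs7 and -0.25 for Ndufs8, with SE between 1.04 and 1.68. Ndufab1 was at 2.77, Ndufa4 at 4.34, Ndufb4 at 2.47 and Ndufb4c at 1.06. By role, the median was 2.91 for the proximal membrane arm, 1.80 for the other peripheral subunits, 1.68 for the distal arm and 0.36 for the core subunits.

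Against Young oocytes those of Aged + LRP1high mice showed no called complex I gene. The limma fit called 0% of all genes in either direction, and 1 of the 47 genes had an unadjusted p under 0.05, being higher (2.96% of all genes). The median was 1.35 beside -0.14 over all genes, with 43 positive changes (37.1% of all genes), and the smallest adjusted p was 1. The highest were Ndufs5, a proximal membrane arm subunit, at 3.81 (SE 1.71) and Ndufa4 at 3.53 (SE 1.80), and the lowest Ndufa13, also known as GRIM-19, at -1.38 (SE 1.26) and Ndufaf6 at -1.02 (SE 1.09).

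Core subunits gave 2.06 for Ndufv1, 0.19 for Ndufv2, 0.61 for Ndufs1, 0.11 for Ndufs3, 2.00 for Ndufs7 and -0.01 for Ndufs8, with SE between 0.93 and 1.5. Ndufab1 was at 0.30, Ndufb4 at 1.66 and Ndufb4c at 1.19. Ndufa10 and Ndufaf2 were the 2 genes higher in all Aged + LRP1high than in all Young libraries, where 1.67% of all genes were. Without the libraries poor in oocyte markers the median was 0.67, beside 0.26 over all genes. Among genes with a mean of at least 10 FPKM, in all libraries, it was 1.65, beside 1.45 over all such genes.

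In granulosa cells the comparison of Aged + LRP1high with Aged started from Aged libraries low in complex I RNA and in most protein-coding RNA. Limma called none of the 48 genes, as it called 0% of all 13002 genes tested, and 4 of the 48 had an unadjusted p under 0.05, all higher (7.99% of all genes). The median change was 1.19 beside 0.89 over all genes, with 42 positive changes (92.8% of all genes). In 17 genes the groups did not overlap with Aged + LRP1high higher, where 50.4% of all genes did so, and in 0 with it lower (1.38% of all genes). The largest values were those of Ndufa5 at 4.44 (SE 3.11) and Ndufa6, an LYR protein that binds the acyl carrier protein, at 3.27 (SE 2.75), and the lowest Ndufaf2 at -0.39 (SE 0.62) and Ndufaf5 at -0.13 (SE 0.48).

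Among the core subunits Ndufv1 was at 0.40, Ndufv2 at 1.51, Ndufs1 at 1.22, Ndufs3 at 1.72, Ndufs7 at 0.39 and Ndufs8 at 0.16, with SE between 0.38 and 1.10. Ndufab1 was at 1.27, Ndufa4 at 2.36, Ndufb4 at 1.02 and Ndufb4c at 0.00. The repeat-like genes took 91.6% and 93.0% of FPKM in the Aged libraries and 81.4%, 94.8% and 67.7% in those of Aged + LRP1high, and what part this had was not tested.

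The Aged + LRP1low granulosa libraries differed widely from each other, with sums of 3226 and 50.4 FPKM. Limma called none of the 48 genes against Aged, as it called 0% of all genes, and 3 had an unadjusted p under 0.05, all higher (3.05% of all genes). The median was 0.69 beside 0.31 over all genes, and 0.00 without Aged + LRP1low 2. Ndufc1, a small proximal membrane arm subunit, had the largest change, 5.79 (SE 1.82, adjusted p = 0.904), from 0 and 0.346 FPKM in Aged to 313 and 12.1. Ndufb6, of the distal arm, was at 4.96 (SE 2.93), from 0 in both to 568 and 0.704 FPKM, so that its mean rests on 1 library. The lowest were Ndufaf1 at -0.59 (SE 0.59) and Ndufa2 at -0.53 (SE 2.09).

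Among the core subunits Ndufv1 was at 0.17, Ndufv2 at 0.20, Ndufs1 at 1.90, Ndufs3 at 0.21, Ndufs7 at 0.81 and Ndufs8 at 1.99, with SE between 0.42 and 1.21. Ndufab1 was at 3.36, Ndufa4 at 4.52, Ndufb4 at 0.04 and Ndufb4c at 0.00. Groups did not overlap for 13 higher genes and 1 lower gene, Ndufaf1, where 30.5% and 6.95% of all genes did so. Aged + LRP1low 1 also had a median of 163 FPKM over 6 luteal markers such as Star and Cyp11a1, and a granulosa marker median of 0.151, and what part this had was not tested.

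Oocytes and granulosa cells were compared within the Aged + LRP1high mice, the group with 3 libraries of each. Of the 45 genes tested 12 rose in oocytes and none fell, where 12.2% of all 13047 genes were called higher and 0.468% lower. The changes were positive for 43 of the 45 genes, where 61.5% of all changes were, with a median of 2.53 beside 0.61 over all genes. At a mean of at least 10 FPKM limma called 11 of 31 genes, where 49.1% of all 3146 genes were called higher and 1.65% lower. The medians were then 3.01 for complex I genes and 3.29 over all genes. Ndufaf2 led with 8.44 (SE 0.92, adjusted p = 6.17e-05), from 0, 0 and 0.162 FPKM in granulosa cells to 253, 352 and 538 in oocytes. Ndufa11 followed with 6.94 (SE 0.93, adjusted p = 0.00013), from 0, 0.413 and 1.55 to 158, 197 and 210 FPKM. The third was Ndufc2 with 5.44 (SE 1.04, adjusted p = 0.00177), from 7.69, 1.34 and 0.226 to 90.9, 318 and 69.1 FPKM. For these 3 genes the groups did not overlap. Of the 12 called genes Ndufaf2, Ndufa11, Ndufb11, Ndufs7 and Ndufa9 averaged under 1 FPKM over the granulosa libraries. They passed the filter only through the oocyte libraries, where they are high, so their calls are given as a description.

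By role, the calls are read against the 12.2% of all genes called higher. The proximal membrane arm had 3 of 9 genes called, with Ndufa10 at 3.92 (SE 1.07) beside Ndufa11 and Ndufc2. The distal arm had 4 of 11, namely Ndufb11 at 4.55 (SE 1.21), Ndufb4 at 4.04 (SE 1.24), Ndufab1 at 3.94 (SE 1.06) and Ndufb2 at 3.64 (SE 1.10). Assembly factors had 2 of 5, Ndufaf2 and, at 4.62 (SE 0.97), Ndufaf4. The core subunits had 1 of 7, Ndufs7 at 3.76 (SE 0.92), the other peripheral subunits 1 of 9, Ndufa9 at 4.07 (SE 1.07), which sits beside the ubiquinone site, and Ndufa4 of complex IV was at 4.17 (SE 1.22). The shares of the core and the other peripheral subunits were near that of all genes, and none of the 3 copies was called.

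**Figure D4:**
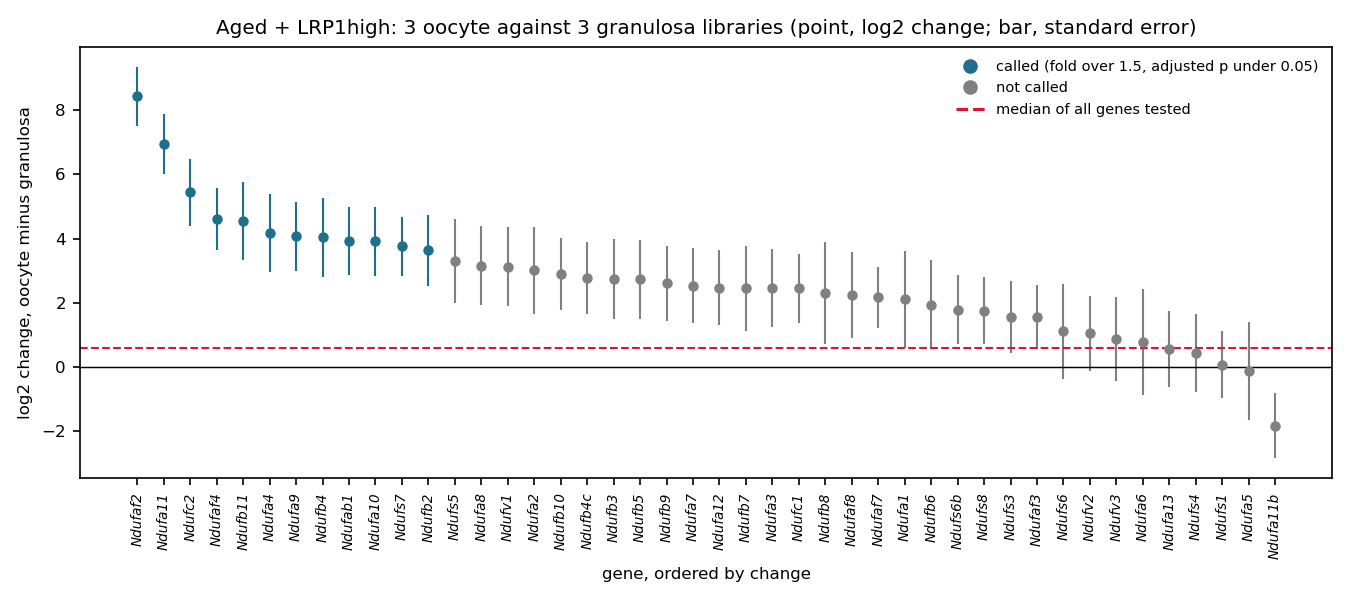
Change of single genes in oocytes against granulosa cells of Aged + LRP1high mice (vertical axis, log2(FPKM + 1) difference ± SE), in order of size along the horizontal axis, with the 12 called genes in blue. The dashed red line is the median of all genes, 0.61, and the called genes lie between 3.64 (Ndufb2) and 8.44 (Ndufaf2).

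Core subunits without a call had 3.13 for Ndufv1, 1.05 for Ndufv2, 0.08 for Ndufs1, 1.56 for Ndufs3 and 1.76 for Ndufs8, with SE between 1.03 and 1.23. Lowest were Ndufa11b at -1.82 (SE 1.02) and Ndufa5 at -0.12 (SE 1.53), and Ndufb4c was at 2.77 (SE 1.12). In 13 genes all oocyte libraries were above all granulosa ones, where 18.8% of all genes were, and in 1, Ndufa11b, they were below, where 12.9% were. Of the 12 called genes 5 hold letters of the NRF1, ETS or YY1 motif in the promoter, beside 19 of the 40 genes with one.

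Which granulosa libraries entered mattered for these calls. Granulosa Aged + LRP1high 1 and 2 had granulosa marker medians of 1.93 and 0.429 FPKM, and without both, which leaves 1 granulosa library assumed to vary like the oocyte ones, limma called 0 of 45 genes and 0 of all 10655. At an unadjusted p under 0.05 were 5 of the 45 and, over all genes, 1021 higher and 411 lower, with a median complex I change of 1.89 beside 0.94 over all genes. With TPM taken over protein-coding genes, which sets the repeat-like RNA aside, 7 of the 45 genes were called, 5 higher and 2 lower, where 2.66% of all genes were called higher and 26.7% lower. The median complex I change was then 1.5, beside -2.48 over all genes.

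The difference between cell types in the response to Aged + LRP1high, an interaction over all 21 libraries, gave no call by limma among the 48 genes or among all 21767 genes (0% in either direction). At an unadjusted p under 0.05 were 1 gene higher and 1 lower, where 0.221% and 15.8% of all genes were. The median was -0.94 beside -1.68 over all genes. It was 0.75 without oocyte Aged 2 (-2.31 over all genes) and -2.97 without oocyte Aged 1 (-0.97 over all genes). Without the oocyte libraries poor in oocyte markers it was -2.98. The ends were Ndufv3, a small subunit next to the NADH site, at -4.17 (SE 2.53), Ndufs3 at -3.97 (SE 1.98), Ndufaf2 at 3.09 (SE 2.02) and Ndufs7 at 3.76 (SE 1.49, adjusted p = 0.256). Other core subunits had -1.15 for Ndufv1, -2.36 for Ndufv2, -2.49 for Ndufs1 and -1.04 for Ndufs8. Ndufab1 was at 0.23, Ndufa4 at -0.69, Ndufb4 at -0.55 and Ndufb4c at -0.55.

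The balance with the mitochondrial partners differed between libraries. The 7 genes mt-Nd1 to mt-Nd6 with mt-Nd4l encode the core of the membrane arm, and their FPKM sum was 370.8 to 16400 in oocyte and 1215 to 15130 in granulosa libraries. Divided by the sum of the 48 nuclear genes it gave a ratio of 0.163 to 0.796 in 7 of the 8 oocyte libraries rich in markers, and of 4.44 in Aged 2. The ratio was 10.2 to 49.5 in the 4 poor ones. In granulosa libraries it was 2.69 in Young, 2.87 in Aged + Unsorted, 1663 and 761 in Aged, and 1.63 to 108 in the others. Nuclear sums exceeded mitochondrial ones only in those 7 oocyte libraries.

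**Figure D5:**
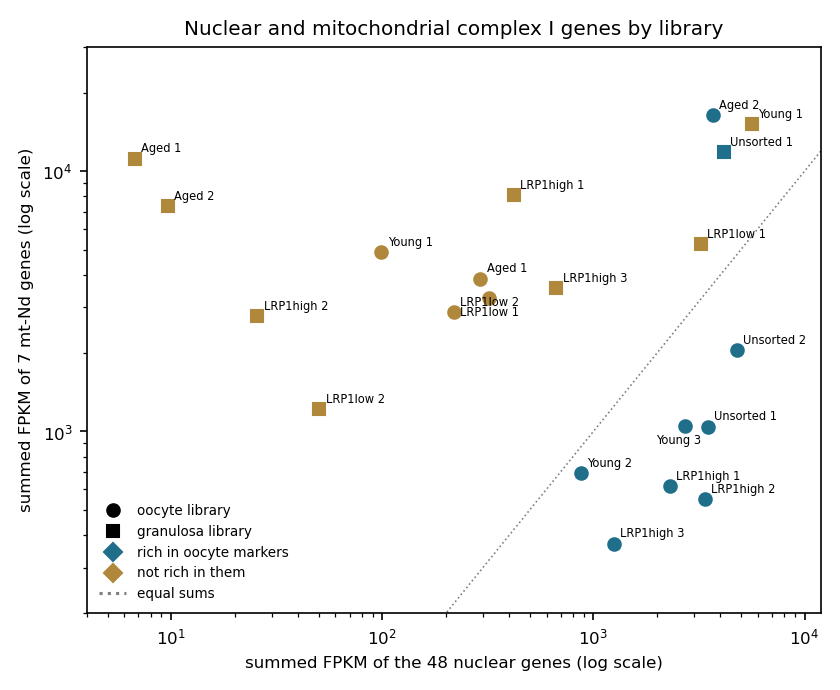
Summed FPKM of the 48 nuclear genes (horizontal, log scale) and of the 7 mitochondrial complex I genes (vertical, log scale) in each of the 21 libraries, with a dotted line where the sums are equal. The 7 points below the line are oocyte libraries with ratios of 0.163 to 0.796, and the 2 Aged granulosa libraries lie far to the left at 6.72 and 9.68 FPKM.

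In the contrast of oocytes with granulosa cells of Aged + LRP1high mice 5 of the 7 mitochondrial genes fell, where 0.468% of all genes were called lower. The changes were -3.34 for mt-Nd1, -3.25 for mt-Nd2, -3.39 for mt-Nd3, -4.32 for mt-Nd4l and -3.52 for mt-Nd5, with limma adjusted p between 0.0042 and 0.0305. These calls were not repeated under the other settings. Granulosa Aged + LRP1high 1 and 2, which entered them, had granulosa marker medians of 1.93 and 0.429 FPKM. The median of the 7 was -3.34, where the 45 nuclear genes had 2.53. In Aged + LRP1high against Aged + LRP1low oocytes 2 of the 7 fell, mt-Nd2 by 2.77 (adjusted p = 0.0431) and mt-Nd4l by 4.37 (adjusted p = 0.039), where 24.8% of all genes were called lower, so the share of the 7 was near that of all genes. None of the 7 was called in the other 8 comparisons, where their medians lay between -4.16 in Aged + LRP1high against Aged oocytes and 2.72 in Aged against Young oocytes.

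Of 11 assembly factors with other names 10 had a row, all but Coa1. Tmem70, a membrane protein needed for complex I and ATP synthase assembly, rose by 3.70 (SE 1.07, adjusted p = 0.036) in Aged + LRP1high against Aged + LRP1low oocytes, and by 3.63 (SE 1.03, adjusted p = 0.0246) in oocytes against granulosa cells of Aged + LRP1high mice. Foxred1, an oxidoreductase of mid assembly, fell by 2.88 (SE 0.83, adjusted p = 0.036) in the first of these. The first contrast thus had 1 of 10 tested called each way, where 1.21% of all genes were called higher and 24.8% lower. The second had 1 of 9 called higher, near the 12.2% of all genes, and no other comparison had a call among them. Tmem70 was at 35.8, 48.7 and 32.4 FPKM in Aged + LRP1high oocytes and at 3.69 and 0.966 in Aged + LRP1low ones.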

How the data were processed

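RNA of 12 oocyte and 9 granulosa cell libraries was sequenced. The labels give PicoPure extraction and a stranded KAPA library kit, the study's methods Smart-seq2. Per the submitters' processing notes, reads were aligned with HISAT2 2.2.1 and assembled with StringTie 1.3.3b. The authors deposited StringTie gene tables with coverage, FPKM and TPM per gene, and no counts. The notes name mm9, but 54577 of 55335 identifiers had the start and end of GENCODE M21 on GRCm38, all 48 of these genes included, and that build is used here. FPKM was summed over the 4 to 21 identifiers repeated in each table. Depth was obtained from coverage and FPKM.

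A gene entered a fit if its FPKM averaged 1 or more across that fit's libraries, and log2(FPKM + 1) was tested with limma 3.58.1 (R 4.3.3) in 10 comparisons. The oocyte and granulosa comparisons used all libraries of the cell type, the contrast between cell types the 6 Aged + LRP1high libraries, and the interaction all 21. A call needed a fold over 1.5 and an adjusted p under 0.05 over all genes tested. The granulosa groups Young and Aged + Unsorted had 1 library each and were not compared. The fit was tested on simulated data. Genes named were the core subunits, except values of 1 that are not reported here, Ndufa4, Ndufab1, Ndufb4 and its copy, every called gene, the 2 highest and 2 lowest changes of a comparison and the 5 highest and lowest mean levels of a cell type. Others were named after their values were seen. The genes and lists were chosen with earlier results of these data known. Alternatives were a pseudocount of 0.1, no filter or a mean of at least 10, TPM, quantile normalization, trended robust variances, a replicate block and leaving out each library. Chosen after seeing the data were TPM over protein-coding genes, leaving out oocyte libraries whose marker median was under 50 FPKM and leaving out granulosa replicates 1 and 2. Promoters came from RefSeq.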

Additional observations from a re-analysis of the deposited data

Results flagged for a closer look

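Ndufs3, a core subunit of the peripheral arm, had changes of opposite sign in the 2 cell types of Aged + LRP1high mice. Against Aged its change was -2.25 (SE 1.68) in oocytes, where all 3 libraries (33.5, 16.5 and 0.507 FPKM) were below both Aged ones (35.3 and 57.6), and 1.72 (SE 0.41) in granulosa cells, where 3.71, 1.91 and 1.61 FPKM stood against 0 in both. Neither change was called. Of all genes tested 12.4% lay below Aged in this way in oocytes and 50.4% above it in granulosa cells. Repeat-like genes took 91.6% and 93.0% of FPKM in the Aged granulosa libraries. The opposite order of the libraries was itself not tested. The limma interaction over all 21 libraries gave -3.97 (SE 1.98, adjusted p = 0.317).

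Complex I RNA was high in both granulosa libraries that entered no comparison. The sum over the 48 genes was 5629 FPKM in granulosa Young and 4134 in granulosa Aged + Unsorted, where the higher of the 2 Aged granulosa libraries had 9.68. In the Aged + Unsorted library 43 of these genes stood at 0.594 to 1.24 times (median 0.885) their level in the oocyte library Aged + Unsorted 2, and its oocyte marker median was 799.7 FPKM.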

How the results depend on the processing

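The 2 calls of Aged + LRP1high against Aged + LRP1low oocytes became 0 with a pseudocount of 0.1, with quantile normalization and with the replicate block, and 1 with a mean of at least 10, where Ndufa11b was not tested. They ranged from 0 to 4 as libraries were left out, with 0 without any single Aged + LRP1high or Aged + LRP1low library and 4 without Aged 1 or Aged 2. The 12 calls of oocytes against granulosa cells became 7 with a pseudocount of 0.1, 4 without a filter, 19 with TPM, 4 with quantile normalization, 7 with TPM over protein-coding genes and 0 without granulosa replicates 1 and 2. They ranged from 4 (without granulosa 1) to 27 (without oocyte 3), with 19 without granulosa 3, 5 without granulosa 2, and 6 and 7 without oocyte 1 and 2. Of the 12, Ndufaf2 and Ndufa11 kept the call in 14 of 15 settings, Ndufaf4 in 13, Ndufc2 in 12 and Ndufs7 in 10 of 14, and the other 7 in 6 to 9. In Aged + LRP1low against Aged oocytes 0 calls became 1 without a filter, 1 with TPM and 2 without Young 1. Calls also arose there without Aged 1 or Aged 2, which each leave 1 Aged library, and are not counted. Leaving out oocyte Aged 2 leaves 1 Aged oocyte library, so only median changes of the complex I genes are given for that setting. The median was -0.84 for Aged against Young and 3.52 for Aged + Unsorted against Aged. It was 2.13 for Aged + LRP1high against Aged and 0.75 for the interaction. Over all genes each median had the opposite sign, with -1.52, -1.75 and -2.31 in the last 3. Leaving out Aged 1 likewise leaves 1 Aged library. Without Aged 2 calls did arise in each of these 4 comparisons, and they are not counted because they rest on 1 Aged library. With every other library left out the calls of these 4 comparisons were 0. Without granulosa Aged + LRP1low 2, which leaves 1 library in that group, assumed to vary like the others, they rose from 0 to 7 against Aged, all higher, where 5.57% of all genes were called higher, and otherwise stayed 0. For Aged + LRP1high against Young oocytes and against Aged granulosa cells they ranged from 0 to 0. The causes were not tested.

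The sign turned for Ndufa5 in oocytes against granulosa cells (0.85 with a pseudocount of 0.1, 0.99 with TPM, and -2.40 to 1.10 as libraries were left out) and for Ndufa11 in Aged + LRP1high against Aged oocytes (-0.70 without the libraries poor in oocyte markers, and -0.70 to 7.55 as libraries were left out). As libraries were left out it also turned for Ndufa12 in Aged against Young (-2.69 to 0.12), Ndufaf3 and Ndufaf7 in Aged + Unsorted against Aged (-4.40 to 0.30 and -2.76 to 0.11), Ndufa2 in granulosa Aged + LRP1low (-1.05 to 0.00), and Ndufaf2 and Ndufaf5 in granulosa Aged + LRP1high (-0.84 to 0.07 and -0.32 to 0.03). The median over the genes ranged from -0.84 to 3.13 for Aged against Young, from 0.15 to 3.52 for Aged + Unsorted against Aged, from -1.75 to 2.13 for Aged + LRP1high against Aged from -3.13 to 0.30 for Aged + LRP1low against Aged and from 0.73 to 2.79 for Aged + LRP1high against Aged + LRP1low, where it was 0.24 with TPM over protein-coding genes.

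Whether replicate numbers pair the libraries could not be decided. The correlation of same-numbered libraries, taken on deviations from the group means, ran from -0.436 to 0.441 in oocytes, with 4 of 21 over 0.1. It was over 0.1 in 1 of 6 pairs in granulosa cells and in 0 of 3 between cell types. In a group of 2 libraries the deviations mirror each other, so the pairs are not independent. With the replicate block the contrast of oocytes with granulosa cells had 17 calls, and that of Aged + LRP1high with Aged + LRP1low 0 (Ndufaf2 with an adjusted p of 0.086), and it changed no other count of calls. Depth sets a floor, since 1 read of 150 bases on 1 kilobase was worth up to 0.540 FPKM, and low values in granulosa libraries rest on few reads.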

Other observations

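Outside the comparisons, the smallest distance among the genes with a neighbour read in the opposite direction was that of Ndufa7 and Rps28 at 10 bases, followed by Ndufb9 and Tatdn1 at 18 bases, Ndufa8 and Morn5 at 52, Ndufb3 and Fam126b at 61, Ndufaf7 and Cebpz at 70, Ndufa1 and Rnf113a1 at 82, Ndufaf5 and Esf1 at 85, and Ndufa2 and Ik at 99. Ndufaf8 and Tepsin were 197 bases apart, Ndufv3 and Wdr4 135, and Ndufa5 and Asb15 131.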
